A study of Mus musculus with 8 samples.

Results

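Lcn2, Saa3, Hp, C3, Ptx3 and Sod3 are 6 genes for secreted proteins of inflammation and of the acute-phase response, out of 23284 gene symbols measured in mouse induced pluripotent stem cells (iPSCs). They were chosen by their names as a set, with their values in these libraries already known, and Lcn2 and Saa3 lead the set because both were selected on their level after doxycycline (dox). Their levels are therefore given as a description, without a test. The acute-phase response is the change in secreted proteins that follows infection or injury, when cytokines such as interleukin 1, interleukin 6 and tumour necrosis factor act on liver cells and also on fibroblasts, epithelia and macrophages. NF-kappaB, C/EBP and STAT3 factors carry these signals to the genes. Of the set, Lcn2, Saa3, Hp, C3 and Ptx3 are textbook genes of this response, while Sod3 is an antioxidant enzyme of the extracellular space that is not usually counted among the acute-phase proteins. In iPSC culture such transcripts can come from the stem cells, from cells that differentiated, or from the feeder cells beneath them.

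Polyadenylated RNA of 8 iPSC libraries was sequenced with a strand-specific protocol, to set the silencing of the DNA methyltransferases Dnmt3a and Dnmt3b beside a pulse of the microRNA miR-203. Wild-type iPSCs, of the genotype ColA1_miR203 (+/+); Rosa26rtTA (+/+), received control siRNA (siControl), an siRNA to Dnmt3a, an siRNA to Dnmt3b or both of the latter, and were collected 1 week later, with 1 library each. The knock-in line, ColA1_miR203 (KI/KI); Rosa26rtTA (KI/KI), can make miR-203 when dox is added. Its clones 1 and 2 were measured with vehicle and after 5 days of dox followed by 2 weeks without it (n = 2 libraries per group).

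All 8 cultures were reprogrammed from mouse embryonic fibroblasts (MEFs) and grown over feeder cells. The protocol text describes dox for all 4 knock-in libraries, but titles and treatment fields mark 2 of them as not induced, and these fields were followed. Nothing states that libraries came from separate cultures beyond the clone number, so spreads and p-values cover only these libraries. The line, the siRNA transfection and the time in culture differ together between wild-type and knock-in libraries, and their parts cannot be told apart. In bulk RNA, a larger share of cells of a type and more RNA per cell cannot be told apart either.

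The values are FPKM (fragment counts divided by transcript length and by the size of the library), and each library summed to between 486917 and 586657 FPKM. The pluripotency factor Pou5f1 lay between 855 and 1223 FPKM in all 8 libraries, and no pluripotency marker was listed at 0 in any. Other pluripotency markers differed between the lines, in both directions. Klf4 was 18.9 to 20.4 FPKM in wild-type and 59.3 to 116 FPKM in knock-in libraries. Utf1 was 234 to 296 FPKM in wild-type and 90.1 to 128 FPKM in knock-in libraries. The siRNA targets were only slightly lower in the libraries labelled as silenced: Dnmt3a was 59.8 FPKM with its siRNA against 75.1 FPKM in siControl. Dnmt3b was 128 FPKM with its siRNA against 146 FPKM.

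The 6 genes lie on different chromosomes of GRCm38 and all are annotated as protein-coding in GENCODE M21. Lcn2 spans chr2:32384633-32388252 on the minus strand, with 6 exons in its first listed transcript, and Saa3 spans chr7:46711998-46715700 on the minus strand with 4 exons. Hp spans chr8:109575128-109579172 on the minus strand with 5 exons, and C3 spans chr17:57203970-57228136 on the minus strand with 41 exons. Ptx3 spans chr3:66219910-66225805 on the plus strand with 3 exons, and Sod3 spans chr5:52363791-52371418 on the plus strand with 2 exons. Ptx3 overlaps Veph1, a gene on the opposite strand that was at no more than 0.416 FPKM in any library, and C3 overlaps the microRNA gene Mir6978. Saa3 was the only member to share stretches of 50 bases with another gene, over 1.78% of its positions and with Saa1, which was at no more than 0.21 FPKM in any library.

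Promoters are shown because the factors of the response act there and several of the genes were high in the same libraries. RefSeq (GRCm38.p6) gave a window of 250 bases before to 50 bases after the start for 4 of the 6 genes, Lcn2, Ptx3, Saa3 and C3. The C/EBP core searched for, TTGCNNAA on either strand, stood in all 4 windows and in 10.8% of the 32851 windows of the table. Counted from the start, the match lay at -216 to -209 in Lcn2, -99 to -92 in Saa3, -57 to -50 in Ptx3 and -45 to -38 in C3. Each match is in capitals below, as read 5′ to 3′ on the strand of the gene, so that Saa3 and Ptx3 show the core in its reverse complement. The stretches are Lcn2 chr2:32387937-32387966 (minus strand), Saa3 chr7:46715701-46715926 (minus strand), Ptx3 chr3:66219637-66219886 (plus strand) and C3 chr17:57228137-57228386 (minus strand), none of which except that of Lcn2 holds an annotated exon.
Lcn2: agcccttcctgTTGCTCAAccttgcacagt
Saa3: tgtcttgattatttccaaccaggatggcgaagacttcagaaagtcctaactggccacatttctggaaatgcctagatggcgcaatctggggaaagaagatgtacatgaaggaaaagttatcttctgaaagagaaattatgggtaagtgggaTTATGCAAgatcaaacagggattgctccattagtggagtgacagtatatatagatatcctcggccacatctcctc
Ptx3: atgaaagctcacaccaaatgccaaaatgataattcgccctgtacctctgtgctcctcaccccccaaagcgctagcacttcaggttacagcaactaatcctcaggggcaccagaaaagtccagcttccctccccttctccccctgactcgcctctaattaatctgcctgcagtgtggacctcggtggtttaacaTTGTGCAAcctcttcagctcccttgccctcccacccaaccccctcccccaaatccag
C3: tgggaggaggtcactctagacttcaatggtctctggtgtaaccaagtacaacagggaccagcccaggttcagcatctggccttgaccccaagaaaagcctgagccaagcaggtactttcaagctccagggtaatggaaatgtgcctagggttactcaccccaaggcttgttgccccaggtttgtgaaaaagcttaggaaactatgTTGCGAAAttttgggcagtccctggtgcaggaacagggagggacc

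The NF-kappaB consensus, searched on both strands, stood in 1 of the 4 windows, that of Ptx3, where it spanned the start, and in 8.46% of all windows. In the 250 bases before the start it stood in 0 of 4 and in 7.25% of all. The STAT core TTCNNNGAA, which reads the same on both strands, stood in 0 of 4 windows and in 8.30% of all. The searched motifs can share bases, and a match is a run of letters, not a shown binding site.

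All 6 genes were highest in the dox libraries, intermediate with vehicle and lowest in the wild-type libraries. Both dox libraries lay above both vehicle libraries for 6 of 6 members, as they did for 35.1% of the 11927 genes tested. This contrast chose the members, so nothing is read from that count. All 6 passed the filter of a mean of 1 FPKM over the knock-in libraries.

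Lcn2 encodes lipocalin 2, a secreted protein that binds the iron-carrying siderophores of bacteria. It was 0.194 FPKM in siControl, 0.146 with siRNA to Dnmt3a, 0.251 with siRNA to Dnmt3b and 0.158 with both. It was 11.2 and 11.9 FPKM in vehicle clones 1 and 2, and 156 and 166 FPKM after dox. The 3 sets of libraries did not overlap, and Lcn2 went from the lowest or next to lowest of the members in each wild-type library to the next to highest after dox. Dox over vehicle was 14.0-fold in each clone, from 11.5 ± 0.522 to 161 ± 7.24 FPKM (SD, n = 2), which is 3.69 on the scale of log2(FPKM + 1) used for all differences here. That was the 2nd largest difference among the 11927 genes.

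Hp encodes haptoglobin, which binds haemoglobin released from red cells and so, like lipocalin 2, withholds iron. It was 0.862, 0.462, 0.541 and 0.40 FPKM in the wild-type libraries, in the order siControl, Dnmt3a, Dnmt3b and both. Vehicle clones 1 and 2 were at 3.75 and 3.49 FPKM, and dox clones 1 and 2 at 17.6 and 18.4 FPKM. Every knock-in library was thus above every wild-type library. The ratio of dox to vehicle was 4.69 in clone 1 and 5.26 in clone 2, a difference of 2.04 on the log2 scale.

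Saa3 encodes a serum amyloid A, a small apolipoprotein of high-density lipoprotein that in mice is made mainly outside the liver. It was the most abundant member per length in all 8 libraries. The wild-type libraries were at 6.78, 2.50, 5.40 and 6.16 FPKM in the same order, vehicle at 423 and 410 FPKM, and dox at 2350 and 2365 FPKM. After dox it ranked 12 and 10 among all genes of the library by FPKM, against 150 and 149 with vehicle. The means were 416 ± 8.99 with vehicle and 2358 ± 10.5 after dox (SD, n = 2), a ratio of 5.66 and a log2 difference of 2.50. Saa3 made up 84.4% to 85.2% of the summed FPKM of the 6 genes after dox, and the 6 together 0.555% and 0.576% of the FPKM of the dox libraries.

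C3 encodes the protein on which all routes of complement activation converge. It was 2.09, 1.28, 1.82 and 1.40 FPKM in the wild-type libraries, 23.2 and 24.1 FPKM with vehicle, and 76.1 and 80.8 FPKM after dox. Dox over vehicle was 3.27 in clone 1 and 3.35 in clone 2, a log2 difference of 1.69. The clones of a group differed by little beside either step.

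Ptx3 encodes the long pentraxin, a soluble receptor that binds microbes and complement and is made at the site of inflammation. It stood apart from the others in how its level was divided over the libraries. It was 0.538, 0.194, 0.223 and 0.233 FPKM in the wild-type libraries, but already 98.1 and 108 FPKM with vehicle, and 143 and 155 FPKM after dox. Dox over vehicle was only 1.45 in clone 1 and 1.43 in clone 2, a log2 difference of 0.52, which ranked 1233 of 11927. The groups did not overlap, and the lowest dox library was 1.32 times the highest vehicle library.

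Sod3 encodes the extracellular superoxide dismutase, which is held on the matrix and clears superoxide. It was 1.07, 0.425, 0.649 and 0.482 FPKM in the wild-type libraries, 2.04 and 2.54 FPKM with vehicle, and 15.9 and 18.1 FPKM after dox. It was the lowest member in all 4 knock-in libraries and differed least of the 6 between the lines. Its ratio of dox to vehicle, 7.77 in clone 1 and 7.12 in clone 2, was second among the members to that of Lcn2 only.

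**Figure D1:**
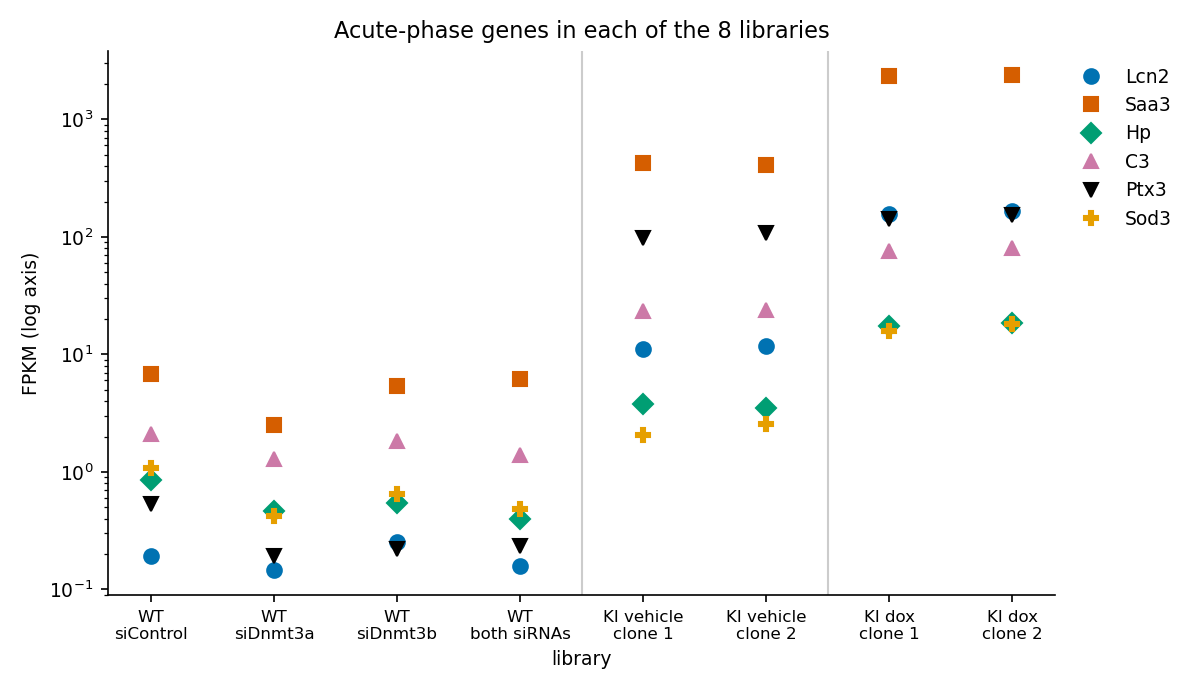
FPKM of the 6 genes (coloured symbols) in each of the 8 libraries, on a log axis, with wild-type (WT) libraries on the left and knock-in (KI) libraries in the middle and on the right. Lcn2 climbs from 11.2 and 11.9 FPKM with vehicle to 156 and 166 FPKM after dox, while Ptx3 is near its dox level already with vehicle.

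How each level was divided between the step from wild type to vehicle and the step from vehicle to dox differed between the genes. Both vehicle libraries were above all 4 wild-type libraries for 6 of 6 members, as for 38.9% of the 12042 genes with a mean of 1 FPKM or more over all libraries. These levels too were known when the genes were chosen. The lowest vehicle library exceeded the highest wild-type library 182-fold for Ptx3, 60.5-fold for Saa3, 44.5-fold for Lcn2 and 11.1-fold for C3, but 4.05-fold for Hp and 1.91-fold for Sod3. Among the 12042 genes, the log2 difference between vehicle and the mean of the wild-type libraries was the largest for Ptx3, at 6.33, and the 2nd largest for Saa3, at 6.13. Of the whole log2 distance from wild type to dox, the part between the lines was 92.4% for Ptx3, 71.1% for Saa3, 65.7% for C3, 47.9% for Lcn2, 43.5% for Hp and 29.0% for Sod3. Ptx3 and Sod3 thus stood at opposite ends, with Ptx3 high in the knock-in line before dox and Sod3 mostly after it. For genes below 1 FPKM in wild type, as are Lcn2, Hp and Ptx3 in all 4 libraries, the log2(FPKM + 1) scale understates the step between lines.

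**Figure D2:**
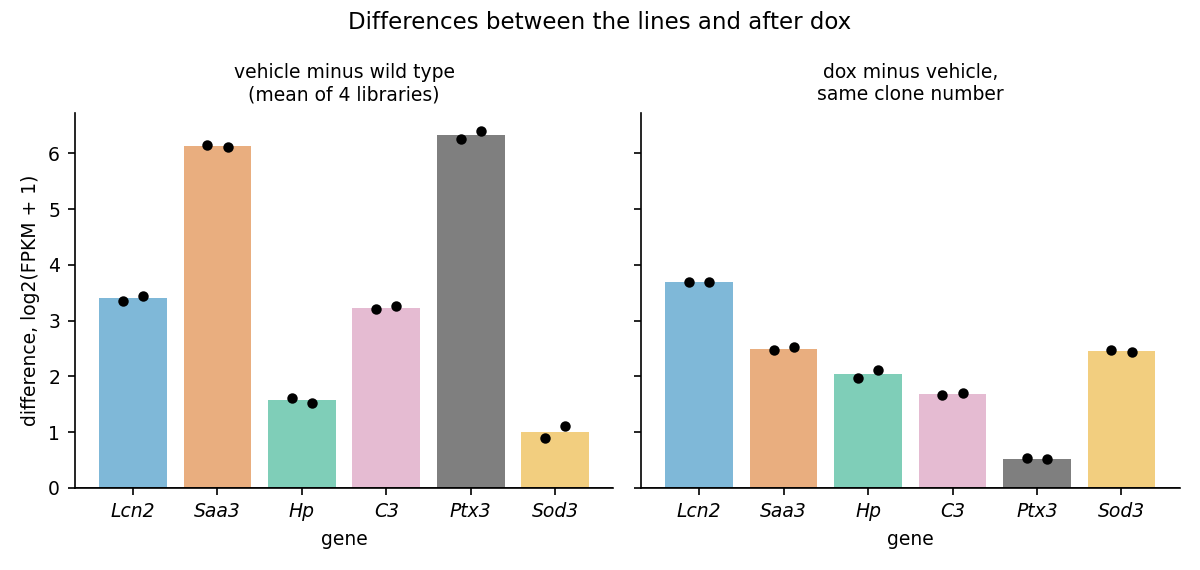
Differences on the log2(FPKM + 1) scale for each gene, between vehicle libraries and the mean of the 4 wild-type libraries (left) and between dox and vehicle libraries of the same clone number (right). Bars are means of 2 clones and points the single clones. Ptx3 has the largest difference on the left, 6.33, and the smallest on the right, 0.52.

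The siRNA libraries stayed at the low end of the range. In them 17 of 18 values lay below siControl, the exception being Lcn2 with siRNA to Dnmt3b. For 5 of 6 members all 3 siRNA libraries were below siControl, as was so for 23.7% of 15447 genes with a mean of 0.1 FPKM or more over the wild-type libraries. The 3 comparisons share the 1 siControl library and have no replicate check. Only Saa3 and C3 reached a mean of 1 FPKM in each pair of libraries. Saa3 was at 36.8% of its siControl level with siRNA to Dnmt3a, 79.7% with siRNA to Dnmt3b and 90.8% with both. That made it 1 of 10 genes lower by 2-fold or more with siRNA to Dnmt3a, which is 0.085% of 11768 genes. With siRNA to Dnmt3b 7 of 11727 genes (0.0597%) and with both 16 of 11723 (0.136%) were lower by 2-fold, and neither Saa3 nor C3 was among them. C3 was at 61.1%, 87.1% and 66.9% of siControl in the same order. The library with both siRNAs did not have the lowest Saa3, and the siRNA libraries differed from siControl by less than 2-fold in C3.

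Markers of fibroblasts moved with these genes. Whether feeder cells or other cells of the cultures carried these markers was not tested. The mean log2(FPKM + 1) of 26 fibroblast markers was 3.46 for siControl, 2.92, 2.91 and 2.84 for the Dnmt3a, Dnmt3b and double siRNA, 4.22 and 4.46 with vehicle, and 5.74 and 5.77 after dox. Their summed FPKM, over the whole list of 28, was 504 to 653 in wild-type libraries, 1155 and 1361 with vehicle, and 3398 and 3518 after dox. After dox 25 of the 27 fibroblast markers tested rose and 1 fell (Tagln, a call lost without either vehicle library), with a median difference of 1.44, against 17.1% of all 11927 genes that rose and 14.8% that fell by limma with Benjamini-Hochberg adjustment and a median of -0.01. Without vehicle clone 1 the fit called 1057 genes higher instead of 2035, and 527 lower instead of 1767, a count that was 957 without dox clone 2 and 1024 without vehicle clone 2. Blocking on the clone number gave 3190 lower. Decorin (Dcn), a collagen-binding proteoglycan, went from 17.7 ± 1.69 to 147 ± 7.12 FPKM (log2 difference 2.98, SE 0.0908, limma adjusted p = 5.67e-05), and the collagen gene Col1a1 from 109 ± 15.2 to 505 ± 16.4 FPKM (SD, n = 2; log2 difference 2.21, limma adjusted p = 1.42e-04). Whether the cells that carry these markers made the acute-phase transcripts was not tested.

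Set against the mean fibroblast marker of the same library, the genes divided. The difference between dox and vehicle, less that of the markers, was 2.28 for Lcn2 (2.17 and 2.39 in clones 1 and 2), 1.09 for Saa3 (0.95 and 1.22) and 1.04 for Sod3 (0.95 and 1.12) on the log2 scale. It was 0.62 for Hp (0.45 and 0.80) and 0.27 for C3 (0.15 and 0.40), so that C3 stayed close to the markers. For Ptx3 it was -0.89 (-0.98 and -0.79), which is to say that Ptx3 was lower after dox per unit of fibroblast marker. Between the lines, vehicle less wild type, the same measure was 5.02 for Ptx3, 4.82 for Saa3, 2.09 for Lcn2 and 1.92 for C3, but only 0.26 for Hp and -0.31 for Sod3. The log2(FPKM + 1) scale compresses the step between lines for genes under 1 FPKM in wild type, as Sod3 was in 3 of 4 libraries and Hp in all 4. As a plain ratio of means, vehicle over wild type was 3.49 for Sod3 and 6.40 for Hp. In the change from vehicle to dox, Lcn2 thus differed from the markers the most, and Ptx3 was the only member whose change was below theirs. In level after dox, Hp and Sod3 lay below the marker mean, at -1.51 and -1.59. Ptx3 lay above it, at 1.47, and Saa3 was the farthest above, at 5.45.

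**Figure D3:**
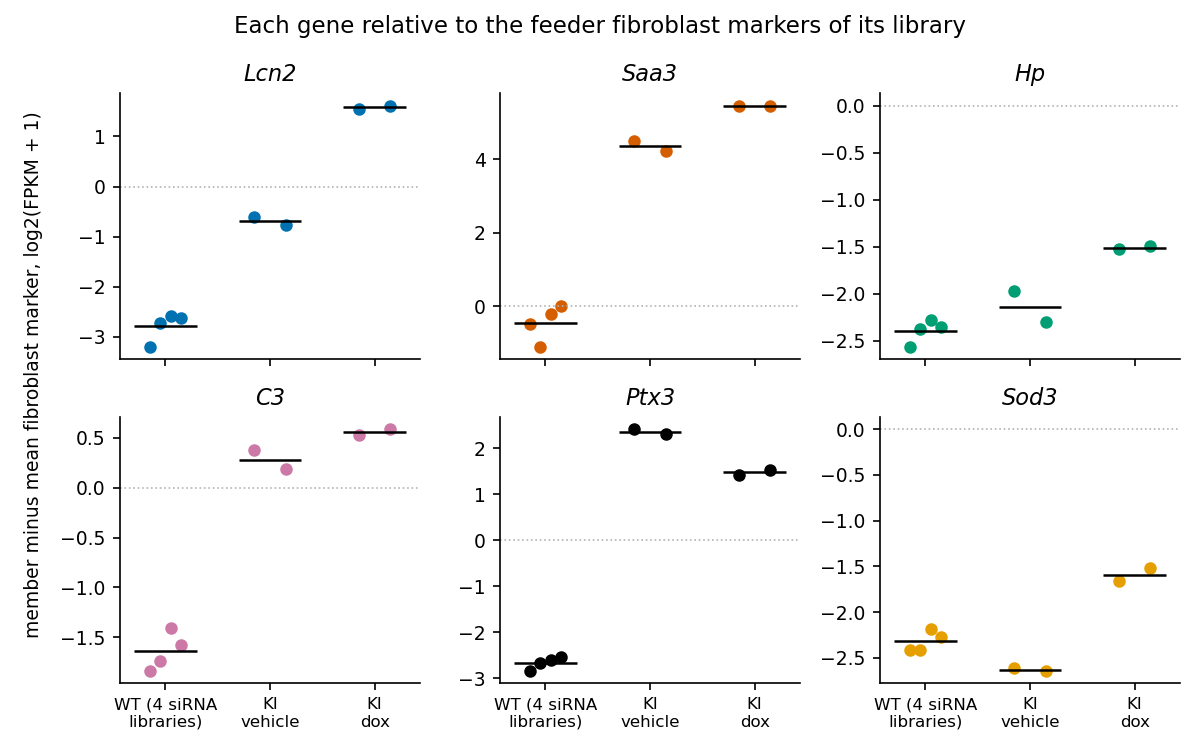
Log2(FPKM + 1) of each gene less the mean log2(FPKM + 1) of 26 fibroblast markers in the same library (y axis), for the 4 wild-type (WT) libraries and the vehicle and dox libraries of the knock-in (KI) line. Points are libraries and lines their mean, each panel has its own y axis, and the dotted line marks 0. After dox Lcn2 is 2.28 above its vehicle level and Ptx3 0.89 below it.

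In the siRNA libraries the mean log2(FPKM + 1) of the fibroblast markers was lower by 0.54, 0.56 and 0.62 than in siControl, beside the lower members. The members other than Saa3 and C3 were mostly below 1 FPKM there, where that scale compresses differences, so they are given as shares of siControl and are not set against the markers. In the order Dnmt3a, Dnmt3b and both, Ptx3 was at 36.0%, 41.4% and 43.3% of siControl, Sod3 at 39.7%, 60.5% and 44.9%, and Hp at 53.6%, 62.8% and 46.4%. Lcn2 was at 75.1%, 129% and 81.2%. The part of the fibroblast cells in these values was not tested.

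Other cell types that can make these proteins were followed by their markers. Of 12 hepatocyte markers 11 were below the filter, and Alb, the albumin of liver cells, was at no more than 0.0219 FPKM in any library. The exception, Apoa2, was between 10.9 and 23.3 FPKM in the 8 libraries and did not pass (log2 difference -0.35, limma adjusted p = 0.168), except with the clone number as a block and without dox clone 1, where the difference was -0.61. Of 3 neutrophil markers tested 1 rose and 1 fell. S100a8 was 0.892 ± 0.293 FPKM with vehicle and 2.22 ± 0.593 FPKM after dox (SD, n = 2; limma adjusted p = 0.0221), a call lost without vehicle clone 2, where the log2 difference was 0.60. Cxcr2 fell by 0.83, from 3.53 ± 0.631 to 1.54 ± 0.136 FPKM, and was 9.38 to 13.7 FPKM in wild type. Camp was below the filter, at 0.144 and 0.0747 FPKM with vehicle, 1.51 and 1.32 FPKM after dox and no more than 0.143 FPKM in wild type. S100a9, Ngp and Retnlg were listed at 0 in every library, and the neutrophil list summed to 5.13 to 6.65 FPKM in the knock-in and 10.1 to 14.4 FPKM in the wild-type libraries.

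Epithelial markers summed to 37.1 to 41.3 FPKM in wild type, 108 and 114 FPKM with vehicle, and 143 and 148 FPKM after dox. Of 12 listed 5 were tested, of which 3 rose and 0 fell, with a median of 0.26. The keratin gene Krt19 rose by 0.93 and the tight-junction gene Cldn4 by 0.47, while Sfn rose by 0.26, a call lost without dox clone 2 (0.20), vehicle clone 1 (0.26) or vehicle clone 2 (0.25). Grhl2, at a log2 difference of -0.43, fell with the block and without vehicle clone 2 (-0.59). Krt7 was below the filter, at 0.0543 and 0.197 FPKM with vehicle and 0.897 and 2.49 FPKM after dox. The basal-cell genes Krt5 and Trp63 were at no more than 0.0457 FPKM in any library. The part of epithelial cells, like that of neutrophils, in the levels of the 6 genes was not tested.

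Macrophage markers were present in all libraries, with a summed level of 177 to 233 FPKM in wild type, 358 and 401 FPKM with vehicle, and 450 and 553 FPKM after dox. Of 13 tested, 4 rose (Tyrobp, Fcer1g, Emr1 and Ctss) and 0 fell, with a median of 0.41. That count was 8 without dox clone 1, 2 without vehicle clone 1 and 8 with the clone number as a block, which also called 2 lower. The adapter gene Tyrobp rose by 0.68, from 21.8 ± 2.22 to 35.6 ± 2.02 FPKM (SD, n = 2; limma adjusted p = 0.00450). That was the largest rise among the macrophage markers. The largest difference downward was that of Fcgr1, at -0.57, from 6.88 ± 1.85 to 4.25 ± 0.811 FPKM, which did not pass (limma adjusted p = 0.0564). The part of the macrophage markers in the levels of the 6 genes was not tested. Among pluripotency markers 3 rose (Esrrb, Klf4 and Dppa5a), 3 fell (Dppa4, Utf1 and Sall4) and 8 did not pass, with a median of -0.08. Blocked on the clone number 5 rose and 6 fell, and 5 fell without dox clone 1.

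The members also differed from one another in profile. Likeness was measured as the root mean square difference of log2(FPKM + 1) over the 8 libraries, after each gene was centred on its mean. Hp and Sod3 were the closest pair, at 0.25, and Saa3 and Sod3 the farthest, at 2.59. Saa3 and Ptx3 were 0.85 apart, Hp and C3 0.76, and Lcn2 and C3 0.93. Against 10986 other genes, the nearest to Lcn2 were the chemokine gene Ccl22 (0.65), the collagen cross-linking enzyme Lox (0.68) and Serpina3n (0.71). Those nearest to Saa3 were Serpina3n (1.06) and Lox (1.18), and those nearest to Ptx3 were Serpina3n (0.74), Lox (0.88) and the scavenger receptor Marco (0.97), so the same serpin, an acute-phase protease inhibitor, was near all 3 of the genes with the largest ranges. Lox is itself among the fibroblast markers. Complement genes were nearest to Hp, with C1ra at 0.07 and C1s at 0.12, followed by Lbp at 0.13. The chemokines Cxcl1 (0.20) and Ccl20 (0.20) and Ccdc80 (0.25) were nearest to C3, and Tmem176a (0.15), C1s (0.17) and P4ha2 (0.19) to Sod3. None of the 10986 genes ranked came within 1 log2 unit of Saa3.

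The rest of the response was read from lists of genes that are not among the 6, tested with limma over all 11927 genes. Of 132 listed genes 78 could be tested, of which 34 rose, 9 fell and 35 did not pass, with a median difference of 0.30. The shares of all genes that rose and fell are those given with the fibroblast markers, 17.1% and 14.8%. The lists were drawn up with earlier results of these data known, and their counts are descriptions. With the clone number as a block 16 fell, and 5 fell without dox clone 1.

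Among other acute-phase proteins 7 of 12 tested rose and 2 fell, with a median of 0.80. Ceruloplasmin (Cp), the copper-carrying oxidase of plasma, rose from 7.94 ± 0.981 to 42.3 ± 2.82 FPKM (log2 difference 2.28, SE 0.106, limma adjusted p = 1.42e-04). The lipopolysaccharide-binding protein Lbp rose from 2.2 ± 0.0529 to 11.1 ± 0.425 FPKM (log2 difference 1.92, SE 0.0949, limma adjusted p = 1.61e-04). The metalloreductase Steap4 rose by 1.94, and the protease inhibitors Serpina3n by 1.75, from 36.9 ± 8.98 to 125 ± 4.09 FPKM, and Serpina3g by 1.32. Each of these 5 differed by more than 1 log2 unit. The metal-binding metallothioneins Mt1 and Mt2 fell instead, by 0.46 and 0.81. Without dox clone 1 only 1 gene of the list fell, and with the block 4 did. The other 19 genes were under the filter, among them the liver genes Fga, Fgb and Crp and the 3 other serum amyloid genes, Saa1, Saa2 and Saa4. Saa1, Saa2 and Saa4 were at no more than 0.21 FPKM in any library, so that Saa3 was the only one of the 4 serum amyloid genes followed here at a measurable level.

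Complement genes other than C3 rose in 12 of 15 cases and fell in 0, with a median of 0.61, and 7 rose without vehicle clone 1. The protease genes of the first component, C1s and C1ra, rose by 2.13 and 2.05, C1ra from 2.50 ± 0.00960 to 13.5 ± 0.833 FPKM (SD, n = 2; SE 0.0958, limma adjusted p = 1.42e-04). Factor B (Cfb), which joins C3 in the convertase of the alternative route, rose by 1.32, from 15.9 ± 0.564 to 41.3 ± 5.07 FPKM. C1qa, which macrophages make, rose by 1.16, from 33.6 ± 1.86 to 76.5 ± 9.0 FPKM. C1qb and C1qc differed by less, at 0.42 and 0.47. The named genes belong to the classical and the alternative route, and they stand beside the log2 difference of 1.69 in C3 itself.

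Among the cytokines that drive the response and their receptors, genes moved in both directions. Of 19 cytokine and receptor genes tested, 6 rose, 3 fell and 10 did not pass, with a median of 0.16. Tnf, the gene of tumour necrosis factor, fell from 13.7 ± 0.562 to 3.79 ± 0.0633 FPKM (SD, n = 2; log2 difference -1.61, SE 0.0905, limma adjusted p = 2.2e-04). Il1b was 26.8 ± 1.45 FPKM with vehicle and 30.1 ± 0.128 FPKM after dox, and Il6 was 6.37 ± 0.367 and 5.38 ± 0.435 FPKM, and neither passed (limma adjusted p = 0.163 and 0.162). In the wild-type libraries Tnf was 0.512 to 0.588 FPKM, Il1b 0.203 to 0.375 FPKM and Il6 no more than 0.0788 FPKM. The part of these cytokines in the levels of the 6 genes was not tested. The receptor genes Il1r1 and Osmr rose, each by 1.07, as did the shared receptor chain Il6st, by 0.82. Tlr2, a receptor for bacterial lipopeptides, fell by 1.01. The log2 difference of the cytokine gene Osm was -1.10 and did not pass (limma adjusted p = 0.0979), though it passed with the clone number as a block (limma adjusted p = 1.67e-04) and without dox clone 2, where the difference was -1.80. Over its alternatives the adjusted p of Osm ranged from 1.67e-04 to 0.258. With the block 5 genes of the list fell.

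Of the factors that carry the signal, 5 of 20 tested rose, 2 fell and 13 did not pass, with a median of 0.09. The C/EBP genes Cebpd and Cebpb rose by 1.48 and 1.01, Cebpd from 5.13 ± 1.29 to 15.9 ± 1.51 FPKM (SD, n = 2; SE 0.156, limma adjusted p = 0.00153). Cebpb was 9.66 ± 2.92 FPKM with vehicle and 20.3 ± 4.11 FPKM after dox (limma adjusted p = 0.0152), and it did not pass when all genes above 0 were tested. Nfkbiz, an NF-kappaB cofactor needed for Lcn2 in macrophages, rose by 0.91, from 4.85 ± 0.0783 to 10.0 ± 0.0139 FPKM. The RNase gene Zc3h12a, which limits the response, rose by 1.07. Nfkbia, the inhibitor gene that NF-kappaB itself activates, rose by 0.38, and its call was lost without either vehicle library, where the difference was 0.43 and 0.34. Rela, Nfkb1 and Stat3 did not pass, at log2 differences of 0.16, -0.03 and 0.01. The genes that fell, Nfkbie and Cebpg, did so by 0.36 and 0.34, and neither was called when any 1 of the 4 libraries was left out, since the list then had 0 that fell.

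Of receptors and partners of the 6 proteins 6 were tested, of which 2 rose, 1 fell and 3 did not pass. The rising genes Itgb2 and Itgam encode the chains of complement receptor 3, and differed by 0.67 and 0.57. Neither passed without dox clone 2, where the differences were 0.49 and 0.54. Itgb2 did not pass without vehicle clone 1 (0.54), and Itgam not without vehicle clone 2 (0.54). Fpr2, a receptor for serum amyloid A, fell by 0.66. Scarb1, the lipoprotein receptor that also binds serum amyloid A, and C3ar1, the receptor for the C3a fragment, were at log2 differences of 0.30 and -0.24 (limma adjusted p = 0.107 and 0.131), and both passed with the clone number as a block. The haptoglobin-haemoglobin receptor gene Cd163 was at no more than 0.13 FPKM in any library.

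Among relatives of the 6 genes 2 of 6 tested rose and 1 fell. Apod, a lipocalin like Lcn2, rose by 1.76, from 14.4 ± 1.58 to 51.2 ± 4.07 FPKM (SD, n = 2; SE 0.104, limma adjusted p = 2.46e-04). Cd109, of the same protein family as C3, rose by 0.61. The cytosolic dismutase gene Sod1 was 760 ± 43.7 FPKM with vehicle and 630 ± 3.94 FPKM after dox (log2 difference -0.27, limma adjusted p = 0.0305), a call lost without vehicle clone 1, where the difference was -0.21, and without either dox library. The mitochondrial Sod2 did not pass, at 0.12. The pentraxin gene Nptx2 was at a log2 difference of -0.42 and passed only with the block or without dox clone 2.

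**Figure D4:**
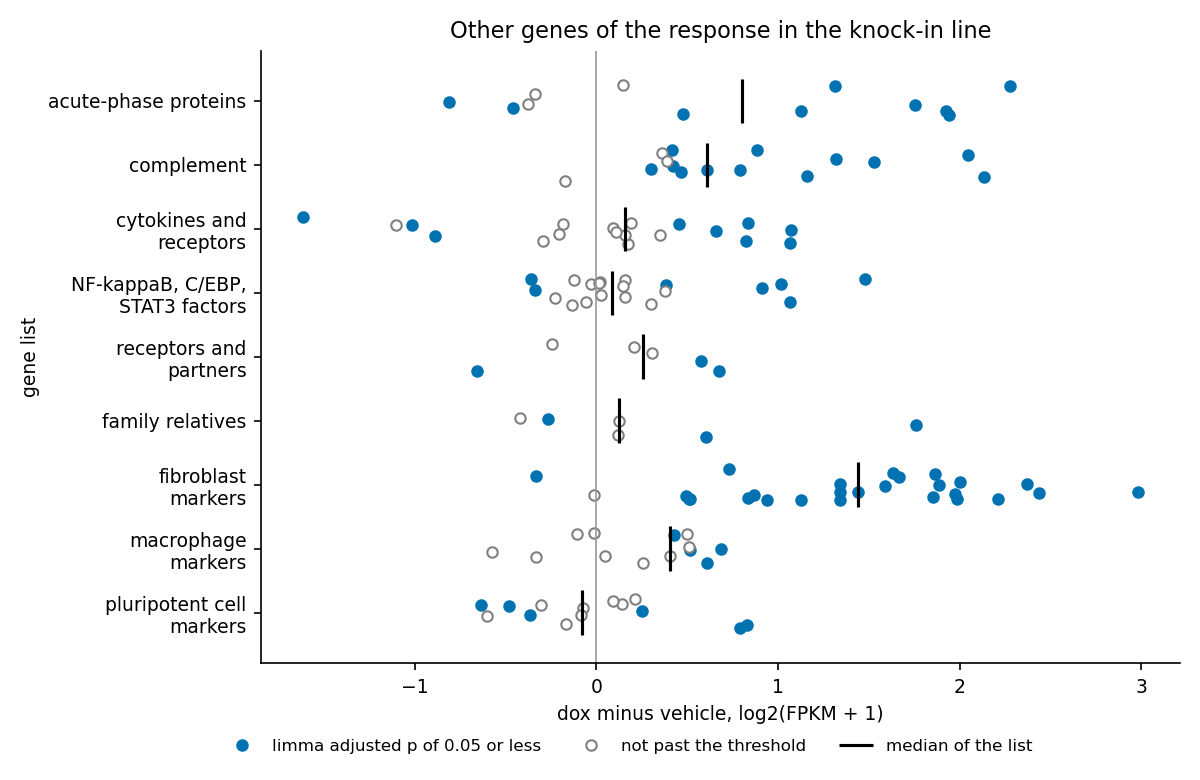
Difference between dox and vehicle on the log2(FPKM + 1) scale (x axis) for each tested gene of 6 lists of the response and 3 marker lists (y axis), none of them among the 6 genes. Filled points passed the limma threshold, open points did not, and black bars are list medians, which are 0.80 for acute-phase proteins, 0.61 for complement and 1.44 for fibroblast markers.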

How the data were processed

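RNA sequencing was measured in 8 libraries. The authors deposited 1 table of FPKM for 23284 gene symbols, and the submitters' processing notes list, with no order or role, Cufflinks 2.2.1, Cuffnorm, TopHat2 2.0.10, Bowtie 1.0.0, SAMtools 0.1.19 and FastQC, with GRCm38 and mm10 as builds. Not given in the sources used here are Cuffnorm's scaling, the gene annotation and the strandedness of counting. The depth in fragments is unknown, so no counting interval was computed. As FPKM divide by the library total, a large rise of some genes lowers others.

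The 6 members and all gene lists were chosen with earlier results of these data known. Differences are of log2(FPKM + 1). For dox against vehicle, limma 3.58.1 (R 4.3.3) was fitted (trend, two-sided, Benjamini-Hochberg adjustment, threshold 0.05) over 11927 genes with a mean of 1 FPKM or more in the 4 knock-in libraries. The fit was tested on simulated data. Members got no test. Genes named are the members, up to 5 tested genes per list with the largest absolute difference, the 3 nearest profiles per member among genes with a mean of 1 FPKM or more over the 8 libraries (predicted and small RNA genes left out), and the siRNA targets. Of the genes this rule names, 2 are not reported here. Named outside this rule, after their values were seen, are the list genes that stand beside a count or a check: Pou5f1, Alb, Krt5, Krt7, Trp63, Camp, S100a9, Ngp, Retnlg, Ctss, Esrrb, Sall4, Tagln, Mt1, Mt2, Fga, Fgb, Crp, Saa1, Saa2, Saa4, C1qb, C1qc, Il1b, Il6, Il6st, Rela, Nfkb1, Stat3, Nfkbie, Cebpg, Cd163, Lrp2 and Sod2. Fibroblast marker means cover the 26 markers with a mean of 1 FPKM or more over all libraries.

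The clone number was taken to pair libraries, as both groups hold a clone 1 and a clone 2 in the labels, which do not state that equal numbers are the same clone. Clone 2 less clone 1 was compared between the dox and the vehicle libraries, and gave a Pearson r of 0.441 across 11927 genes (genes are not independent replicates). Alternatives were a pseudocount of 0.1, no filter, a minimum of 5 FPKM, median-of-ratios scaling, the block on the clone number, each library left out, summed fibroblast markers and only the bases before the start for motifs. Promoter windows came from RefSeq (GRCm38.p6), and positions from GENCODE M21.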

Additional observations from a re-analysis of the deposited data

How the results depend on the processing

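No difference of the 6 genes between dox and vehicle changed direction under the alternatives run. Counts over all genes were less firm. Genes higher after dox numbered 2035, against 1289 with a minimum of 5 FPKM and 1057 to 2130 with 1 library left out. Genes lower numbered 1767, against 947 without a filter and 527 to 2014 with 1 library left out. Such fits leave 1 library in a group, whose spread is assumed equal to that of the other. Of the listed response genes 34 rose and 9 fell, against 25 to 36 and 5 to 8 with 1 library left out, and 4 fell without a filter.

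With the clone number as a replicate block, 3052 genes rose, 3190 fell, and 40 and 16 of the listed response genes rose and fell. It called 13 complement genes higher instead of 12, and 8 cytokine and receptor genes higher instead of 6. Among the factors that carry the signal, 7 rose and 3 fell with it, instead of 5 and 2. Other calls that it changed are given beside the results.

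A pseudocount of 0.1 gave 3.79 for Lcn2 (3.69 as reported; 3.65 to 3.74 with 1 library left out) and, relative to fibroblast markers, -1.01 for Ptx3 and 1.31 for Sod3. Saa3 ranged from 2.48 to 2.52 with 1 library left out. Single siRNA libraries gave few genes at 2-fold, and the filter moved them. With siRNA to Dnmt3a, 8 genes were higher and 10 lower, against 13 and 32 with the pseudocount of 0.1, 3 and 4 with the minimum of 5 FPKM, and 16 lower without a filter. With siRNA to Dnmt3b, 6 were higher and 7 lower, against 10 and 21, then 1 and 4, and 12 lower without a filter. With both, 12 were higher and 16 lower, against 22 and 48, then 5 and 10. The NF-kappaB consensus fell from 1 to 0 of 4 windows when only bases before the start were searched. Over all alternatives, the tested genes that are named kept their call 437 times, gained one 20 times and lost it 19 times. Depth is unknown, so levels under 1 FPKM are imprecise to an extent that cannot be given.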

Other observations

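Megalin (Lrp2), an endocytic receptor that takes up lipocalin 2 and many other ligands, ran opposite to Lcn2 across the lines. It was 15.1 FPKM in siControl and 13.8, 14.2 and 12.6 FPKM with siRNA to Dnmt3a, to Dnmt3b and to both, but 0.80 and 0.90 FPKM with vehicle and 0.53 and 0.63 FPKM after dox. Because it is below the filter of the knock-in libraries it entered no test there, and it was named after its values were seen.

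Dnmt3b was also lower in the knock-in line than in any siRNA library, at 68.8 and 55.1 FPKM with vehicle and 21.5 and 20.8 FPKM after dox, against 128 to 146 FPKM in the 4 wild-type libraries. The 6 acute-phase genes were highest where Dnmt3b was lowest, over 8 libraries that differ in line and treatment at once. Within wild type Dnmt3b varied little and was highest in siControl, at 146 FPKM. In the siRNA libraries 17 of 18 member values lay below siControl. For 5 of 6 members all siRNA libraries were below siControl, as for 23.7% of the 15447 genes compared. These comparisons share the same siControl library and have no replicate check, so nothing about Dnmt3b is read from them. Dnmt3a also differed between the lines, at 8.85 and 9.55 FPKM with vehicle and 7.55 and 7.64 FPKM after dox. It was 59.8 to 77.6 FPKM in wild type. A link of the 6 genes to Dnmt3a or Dnmt3b was not tested.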
